A study of Mus musculus with 26 samples.

Results

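The genes described here are 6 homeobox transcription factors, *Meox1*, *Meox2*, *Meis1*, *Meis2*, *Irx3* and *Irx5*, out of 24340 genes listed in each table of a mouse forelimb RNA-seq study of Hic1 loss. They were chosen by symbol, starting from the low level of *Meox1* in forelimbs that lost Hic1 in the limb mesenchyme, and the question asked of the other 5 was whether they follow *Meox1*. The choice therefore used the conditional values of *Meox1*, so its conditional fold changes are given below as a description without a test. Its library-to-library deviations from the group means, which the choice did not use, are tested with those of the other genes. All 6 were measured in all 26 libraries, and all 6 passed the filter for testing, a mean of at least 1 FPKM (sequenced fragments normalised for transcript length and for library size) over the libraries of a table.

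Hic1 encodes a zinc-finger transcriptional repressor, and both of its alleles were removed in the knockouts by either of 2 strategies. Polyadenylated RNA came from forelimbs at E13.5 of gestation. The conventional set holds Hic1 +/+ wild type (n = 3), Hic1 +/- heterozygote (n = 3) and Hic1 -/- knockout (n = 3) libraries. The conditional set holds controls with a floxed Hic1 allele and no Cre, Hic1 f/+ (n = 5), heterozygotes, PxCre;Hic1 f/+ (n = 5), and knockouts, PxCre;Hic1 f/f (n = 7). PxCre is Cre recombinase driven by Prrx1, which acts in limb bud mesenchyme, and cell types of other origin in the limb are outside its reach. The conditional controls are named WT in the labels, and all conditional groups carry at least 1 floxed allele. Conditional knockouts differ from controls in the Cre transgene and in the number of floxed alleles as well as in Hic1, and these cannot be told apart. The labels do not say whether the libraries of a group are separate embryos or litters, so the p-values speak of library-to-library spread alone.

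Meox1 and Meox2 are closely related homeodomain proteins of the somite and its derivatives, and Meox2 is needed for normal limb muscle. Meis1 and Meis2 are TALE-class homeodomain proteins that bind DNA together with Pbx and Hox proteins, and they mark the proximal limb bud, where retinoic acid promotes their expression. Irx3 and Irx5 are Iroquois homeodomain proteins from 1 gene cluster, which act together in early limb bud patterning of proximal and anterior skeletal elements.

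The tissue and genotypes followed the labels. *Tbx5*, which marks forelimb, had group means from 50.1 to 66.3 FPKM, whereas the hindlimb genes *Tbx4* and *Pitx1* had group means of 6.27 to 8.07 and 1.54 to 3.70 FPKM. *Hic1* stood at 3.00% of the wild type mean in conventional knockouts and at 7.95% of the control mean in conditional knockouts, and at 59.2% and 52.6% in the heterozygotes. Conventional knockout replicate 1 differed from its table, with a median correlation to the other conventional libraries of 0.869, so conventional fold changes and correlations are also given without it. The column names carry the letters CH or CL (conventional) and NZ, OA, OB or OC (conditional), whose meaning the labels do not give, and within-letter values are given where a result touches them. The deposited values are FPKM without read counts, so the depth behind each value is unknown.

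The DNA-binding homeobox of the Iroquois pair is shown because *Irx3* and *Irx5* are so alike that reads could be split between them. Each runs 5′ to 3′ on the coding strand (GENCODE M21 annotation, GRCm38), and capitals mark bases that differ between the paralogues. Both homeoboxes lie in exon 2, at chr8:91800499-91800687 on the minus strand for *Irx3* and at chr8:92359624-92359812 on the plus strand for *Irx5*.
Irx3: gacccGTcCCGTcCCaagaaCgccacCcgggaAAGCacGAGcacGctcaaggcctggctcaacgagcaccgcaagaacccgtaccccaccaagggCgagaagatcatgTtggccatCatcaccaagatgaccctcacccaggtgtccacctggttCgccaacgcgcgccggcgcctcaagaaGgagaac
Irx5: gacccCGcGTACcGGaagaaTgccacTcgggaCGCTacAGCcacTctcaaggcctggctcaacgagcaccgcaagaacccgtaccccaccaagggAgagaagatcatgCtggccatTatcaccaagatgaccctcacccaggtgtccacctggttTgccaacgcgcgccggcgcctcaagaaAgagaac
They differ at 23 of 189 bases (87.8% identity) and share a run of 50 bases, so reads from that stretch could be split between *Irx3* and *Irx5*. The read length is not given in the sources used here, and the share of such reads is unknown. The *Meis1* and *Meis2* homeoboxes differ at 30 of 189 bases (84.1% identity), with a longest shared transcript run of 23 bases.

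*Meox2* was the most abundant of the 6 genes in all 6 groups and *Meis1* the least. Group means of *Meox2* ran from 42.3 to 62.5 FPKM, a level at or above 83.0% of the genes tested. *Irx5* came next at 10.9 to 15.1 FPKM, and its libraries did not overlap those of *Meox2* in any group. *Irx3* (6.99 to 12.5 FPKM) and *Meox1* (6.83 to 12.1 FPKM) followed and overlapped each other in every group except the conditional knockouts, where *Meis2* stood between them. *Meis2* ran from 4.80 to 9.46 FPKM and *Meis1* from 3.10 to 6.19 FPKM. In wild type, conventional heterozygotes and conditional controls these last 2 did not overlap. Neither did they in conditional knockouts, where the lowest *Meis2* library read 7.14 FPKM and the highest *Meis1* library 7.12 FPKM. They overlapped in conventional knockouts and in conditional heterozygotes. FPKM are per transcript length, so these levels can be set side by side.

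**Figure D1:**
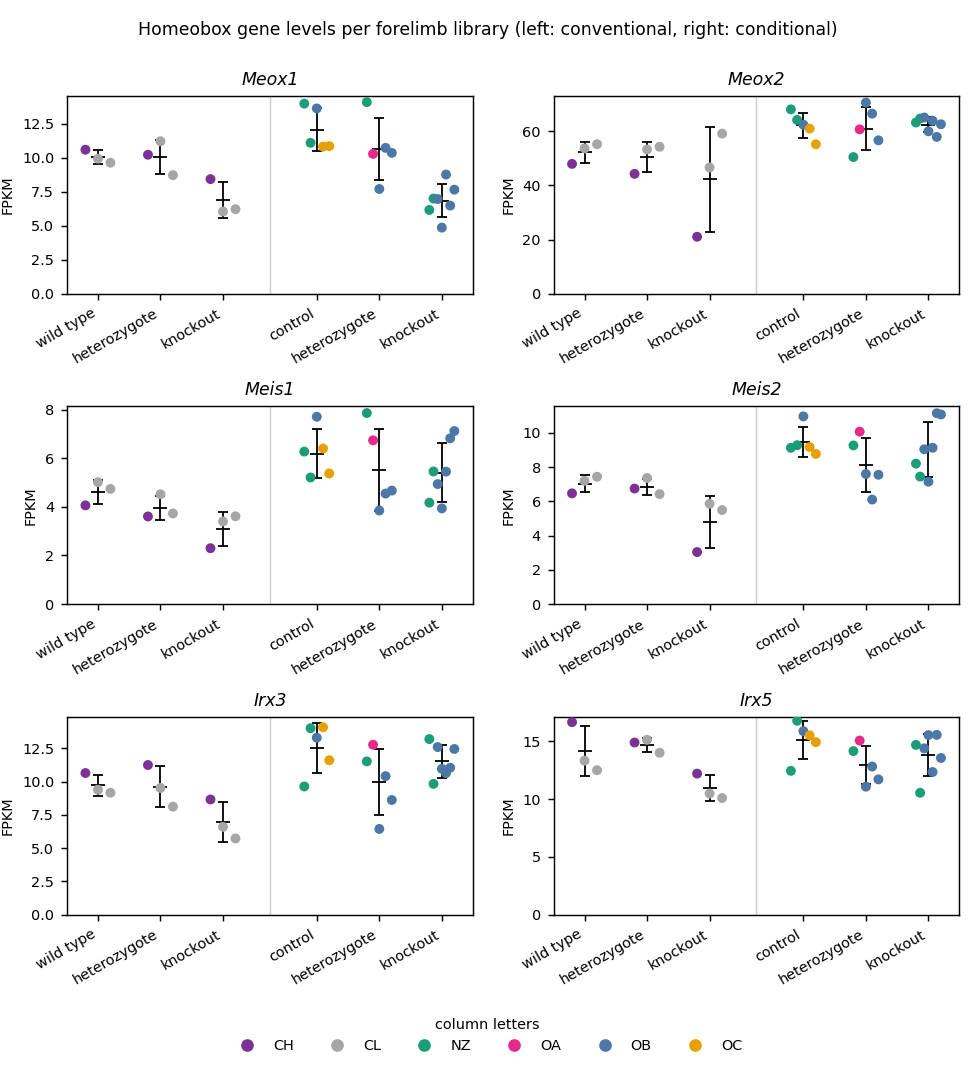
FPKM of the 6 genes in each library by genotype group, conventional groups left of the line and conditional groups right of it; bars are the group mean and SD and colours are the letters in the column names. The 7 conditional knockouts lie below all 5 controls for *Meox1*, while conditional knockouts and controls overlap for the other 5 genes.

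*Meox1* was low in the forelimbs of both knockouts. The gene lies at chr11:101877510-101894374 on the minus strand, 26.71 Mb from *Hic1* on the same chromosome. The 5 conditional controls read 13.97, 11.1, 13.6, 10.8 and 10.8 FPKM (12.1 ± 1.58, SD). The 7 conditional knockouts ran from 4.85 to 8.76 FPKM with a median of 6.95 (6.83 ± 1.22, SD), 56.6% of the control mean. Every knockout library lay below every control library, which is the pattern the gene was chosen for and is not tested here. The log2 fold change was -0.75 on the log2(FPKM + 1) scale, which understates changes of genes with low FPKM. Fewer cells that express a gene and less RNA per cell cannot be told apart in bulk tissue. The 5 conditional heterozygotes read 14.1, 10.3, 7.69, 10.7 and 10.4 FPKM and overlapped both other groups. Within the letters NZ the 2 controls read 13.97 and 11.1 FPKM against 6.15 and 6.99 FPKM in the 2 knockouts. Within OB the 1 control read 13.6 FPKM against 4.85 to 8.76 FPKM in the 5 knockouts.

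The conventional libraries were not used to choose *Meox1*. There the wild types read 10.6, 9.92 and 9.62 FPKM (10.04 ± 0.49, SD), the heterozygotes 10.2, 11.2 and 8.71 FPKM, and the knockouts 8.42, 6.04 and 6.21 FPKM (6.89 ± 1.33, SD). All 3 knockouts lay below all 3 wild types and all 3 heterozygotes, at 68.6% of the wild type mean. Of all genes 7.86% lay below every wild type and 6.21% below every heterozygote. The log2 fold change against wild type was -0.50 ± 0.15 (SE; 95% interval -0.84 to -0.16), with an unadjusted p of 0.00939 that did not survive adjustment over the 12717 genes tested (limma, adjusted p = 0.524). Without knockout replicate 1 it was -0.63 (limma, adjusted p = 0.118). Over the 17 alternatives run the adjusted p ran from 0.000125 to 0.829, the lowest being from array weights that did not converge. Between the tables no test was made, since they may have been scaled apart.

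*Meox2* did not follow *Meox1* in the conditional knockout. The gene lies at chr12:37108540-37179534 on the plus strand. Controls read 68.1, 64.2, 62.4, 61.0 and 55.2 FPKM (62.2 ± 4.73, SD), and the 7 knockouts ran from 57.9 to 65.1 FPKM with a median of 63.2 (62.5 ± 2.62, SD). The knockouts lay inside the control range, with a mean of 100.5% of the control mean. The log2 fold change was 0.01 with a 95% interval of -0.14 to 0.15, and the test was not passed (limma, adjusted p = 1.00). In this fit, which has no letters term, the interval reached no farther than 0.15 on the log2 scale in either direction. *Meox1* differed by -0.75 in the same libraries. With a letters term the *Meox2* sign turned negative, with an interval that included 0. Within NZ the 2 controls averaged 66.2 FPKM and the 2 knockouts 64.0 FPKM. Within OB the 1 control read 62.4 FPKM and the 5 knockouts averaged 61.9 FPKM. The 2 OC libraries, both controls, averaged 58.1 FPKM.

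In the conventional set *Meox2* rested on 1 library. Wild types read 47.9, 53.7 and 55.2 FPKM, heterozygotes 44.3, 53.3 and 54.3 FPKM, and knockouts 21.0, 46.6 and 59.1 FPKM. The value of 21.0 FPKM is knockout replicate 1, the library that stood apart, and the other 2 knockouts span the wild type range. The log2 fold change was -0.42 (95% interval -1.16 to 0.32; limma, adjusted p = 0.596) with it and 0.01 without it (limma, adjusted p = 0.999). Over the 17 alternatives run the adjusted p ran from 0.0105 to 0.999.

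The proximal factors *Meis1* and *Meis2* did not pass the test in either knockout. *Meis1* lies at chr11:18879817-19018985 on the minus strand and *Meis2* at chr2:115863064-116065839 on the minus strand. For *Meis1* the conditional controls read 6.27, 5.21, 7.71, 6.40 and 5.37 FPKM and the 7 knockouts 3.94 to 7.12 FPKM with a median of 5.45. The groups overlapped, and the log2 fold change was -0.18 (95% interval -0.50 to 0.14; limma, adjusted p = 0.984). For *Meis2* the controls read 9.12, 9.28, 11.0, 9.17 and 8.76 FPKM and the knockouts 7.14 to 11.1 FPKM with a median of 9.04. The groups overlapped again, with a log2 fold change of -0.07 (95% interval -0.31 to 0.17; limma, adjusted p = 1.00).

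In the conventional set both *Meis* genes were low in all 3 knockouts. *Meis1* read 4.06, 5.02 and 4.74 FPKM in wild type and 2.30, 3.40 and 3.61 FPKM in knockouts, and *Meis2* 6.46, 7.20 and 7.43 FPKM in wild type and 3.04, 5.86 and 5.49 FPKM in knockouts. No knockout library overlapped a wild type library for either gene, and 7.86% of all genes lay below every wild type in this way. The log2 fold changes were -0.46 ± 0.16 and -0.51 ± 0.20 (SE), and neither passed (limma, adjusted p = 0.596 for both). Without knockout replicate 1, the lowest library for both genes, they were -0.31 and -0.27.

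The Iroquois genes *Irx3* and *Irx5* passed no test in either knockout. *Irx3* lies at chr8:91798525-91802067 on the minus strand and *Irx5* at chr8:92357625-92376286 on the plus strand, 555.6 kb apart. In the conditional set *Irx3* read 9.63, 14.01, 13.3, 14.1 and 11.6 FPKM in controls and 9.82 to 13.2 FPKM in knockouts with a median of 11.0. *Irx5* read 12.4, 16.8, 15.9, 15.5 and 14.9 FPKM in controls and 10.5 to 15.6 FPKM in knockouts with a median of 14.4. Both genes overlapped between the groups, with log2 fold changes of -0.10 (95% interval -0.37 to 0.16; limma, adjusted p = 1.00) and -0.13 (95% interval -0.33 to 0.07; limma, adjusted p = 0.967).

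In the conventional set *Irx3* read 10.6, 9.38 and 9.16 FPKM in wild type against 8.65, 6.59 and 5.72 FPKM in knockouts. *Irx5* read 16.7, 13.3 and 12.5 FPKM in wild type against 12.2, 10.5 and 10.1 FPKM in knockouts. No knockout library overlapped a wild type library for either gene, and here knockout replicate 1 was the highest of the knockouts. Over all genes 7.86% lay below every wild type in this way. The log2 fold changes were -0.44 ± 0.17 and -0.34 ± 0.13 (SE; limma, adjusted p = 0.596 for both), and -0.58 and -0.42 without that library.

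Counted together, 0 of the 5 genes other than *Meox1* were called in the conditional knockout against control, where 0.263% of genes were called, and 0 of 5 did not overlap, where 0.689% of genes did not. Their median log2 fold change was -0.10 against 0.01 over all 12918 genes tested, and 4 of 5 were negative. In the conventional knockout against wild type 0 of 6 were called, where 0.0236% of genes (3 of 12717) were called, and 5 of 6 had an unadjusted p under 0.05 against 898 of all genes. For 5 of 6, all but *Meox2*, every knockout lay below every wild type, a pattern that 7.86% of genes showed. The median of the 6 was -0.45 against -0.02 over all genes, and all 6 were negative. Without knockout replicate 1 the same 5 genes lay below wild type, as did 15.7% of genes, and 0 of 6 were called, where 0.0393% of genes were called. The call depends on how libraries are weighted: with limma array weights, which did not converge in this table, 6 of 6 were called among 6726 genes, and with gene-by-gene weights, chosen after the data were seen, 4 of 6 (*Meox1*, *Meis1*, *Irx3* and *Irx5*) among 980 genes.

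Of 20 gene lists of tissues and pathways, 3 had summed levels that did not overlap between conventional knockouts and wild types, and no gene of these 3 was called. Of single genes 7.86% lay below every wild type. How many lists of random genes would separate in this way was not tested. The 9 irregular connective tissue genes summed to 1046 to 1075 FPKM in wild type and 785.1 to 830.4 FPKM in knockouts, lower in all 3. The 6 erythroid genes summed to 2498 to 2851 and 2859 to 6218 FPKM, and the 7 Pbx and Meis-class cofactors to 130.4 to 136.1 and 138.6 to 145.9 FPKM. A sum follows its most abundant genes. Gene by gene in the conventional knockout, 6 of the 9 irregular connective tissue genes were negative and 3 positive. Of the 5 erythroid genes tested 4 were positive and 1 negative. Of the 7 cofactors 3 were negative, with a median log2 fold change of 0.005. The part of these 3 lists in the values of the 6 genes was not tested. In the conditional knockout 2 of the 20 lists did not overlap with controls, and 0.689% of single genes did not. The 7 neuron genes summed to 57.0 to 63.4 FPKM in controls and 40.6 to 44.8 FPKM in knockouts, and the 16 retinoic acid genes to 814.6 to 872.2 and 878.8 to 977.5 FPKM. Of the 6 neuron genes tested 4 were negative and 2 positive, and 2 were called lower, where 0.263% of all genes were called. The 2 called were *Nefm* (log2 fold change -0.60, limma adjusted p = 0.0154) and *Uchl1* (-0.62, limma adjusted p = 0.000309). The part of either list in the level of *Meox1* was not tested.

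**Figure D2:**
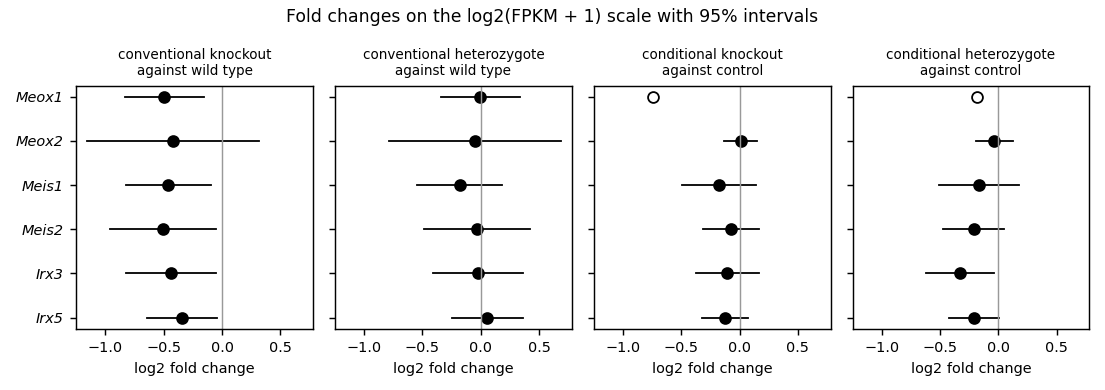
Log2 fold changes of the 6 genes on the log2(FPKM + 1) scale in 4 comparisons, with 95% intervals from limma; the open circle is *Meox1* in the conditional set, shown without an interval because its values chose it. In the conditional knockout *Meox1* stands at -0.75 and the other 5 between -0.18 and 0.01.

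With 1 allele lost, no member was called. In conventional heterozygotes against wild type 0 of 6 were called, where 0% of genes were called (0 of 12717 by limma, with 47 at an unadjusted p under 0.05), and the log2 fold changes ran from -0.18 for *Meis1* to 0.06 for *Irx5*. In conditional heterozygotes against controls 0 of 5 were called, where 0.00774% of genes were called, and all 5 were negative with a median of -0.21. *Irx3* had the most negative value, with heterozygotes at 11.5, 12.8, 6.43, 10.4 and 8.61 FPKM and a log2 fold change of -0.33 (95% interval -0.62 to -0.04; limma, adjusted p = 0.747).

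For 4 of the 6 genes the conditional heterozygotes divided by column letters. For *Meis1* the 3 OB heterozygotes read 3.85, 4.55 and 4.67 FPKM, and the NZ and OA heterozygotes 7.86 and 6.74 FPKM. *Meis2* read 7.59, 6.10 and 7.55 FPKM in OB and 9.26 and 10.1 FPKM in NZ and OA. All 3 OB heterozygotes lay below the NZ and OA libraries for both genes, and for *Irx3* and *Irx5* as well, a pattern shown by 19.1% of the 12918 genes tested. *Meox1* overlapped, at 7.69, 10.7 and 10.3 FPKM in OB against 14.1 and 10.3 FPKM. *Meox2* overlapped too, at 70.6, 66.5 and 56.7 FPKM in OB against 50.5 and 60.7 FPKM. The OB control read 7.71 FPKM for *Meis1* and 11.0 FPKM for *Meis2*, the highest control for each. What the letters stand for is not given, and their part in these values was not tested.

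Knockouts against heterozygotes gave 0 of 6 members called in the conventional set, where 0.00786% of genes were called, and 0 of 5 in the conditional set, where 0.0774% were called. In the conventional set *Meox1*, *Meis2* and *Irx5* lay below every heterozygote, as did 6.21% of genes. *Meox1* had a log2 fold change of -0.49 there (limma, adjusted p = 0.697). In the conditional set the 5 ran from -0.01 for *Meis1* to 0.22 for *Irx3*.

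Within the conditional groups the Meis pair and the Irx3 and Irx5 pair each varied together when group means were removed, the Meox pair did not pass, and no pair of genes passed when the means of the column letters were removed as well. Over the 17 conditional libraries, with each group mean removed, 3 of 15 pairs of members passed a permutation test within groups (two-sided, 100000 draws, adjusted over the 15 pairs). *Meis1* and *Meis2* had Pearson r = 0.805 (permutation, adjusted p = 0.00735) and Spearman rho = 0.738 (permutation, adjusted p = 0.0307), and r = 0.846 without the 2 libraries farthest out in *Meis1*. *Irx3* and *Irx5* had r = 0.765 (permutation, adjusted p = 0.00480) and rho = 0.738 (permutation, adjusted p = 0.0307), and r = 0.688 without the 2 farthest. *Meox1* and *Meis1* had r = 0.706 (permutation, adjusted p = 0.0222), but rho = 0.615 did not pass (permutation, adjusted p = 0.0692) and r was 0.549 without the 2 farthest. *Meox1* and *Meox2* had r = -0.23, which did not pass (permutation, adjusted p = 0.528).

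With the means of each group and letter combination removed, which leaves 14 libraries, 0 of 15 pairs passed. The r values were then 0.663 for *Meis1* and *Meis2*, 0.711 for *Irx3* and *Irx5* and 0.639 for *Meox1* and *Meis1* (permutation, adjusted p = 0.306 for each). Spearman rho was 0.380 (permutation, adjusted p = 0.819), 0.745 (permutation, adjusted p = 0.502) and 0.534 (permutation, adjusted p = 0.502). Without the 2 farthest libraries r was 0.211, 0.732 and 0.567, so the Meis value then rested on those 2 libraries. In the 8 conventional libraries other than knockout replicate 1, the same pairs had r of 0.774, 0.600 and 0.289. None of the 15 pairs passed (exact permutation within groups, adjusted p = 0.347, 0.208 and 0.833 for these 3). With 72 permutations this test can give no p below 0.0139. *Meox2* and *Irx3* (r = -0.88) stood at that value and still did not pass (exact permutation, adjusted p = 0.208). A pair could not pass alone, so the lack of calls there says nothing of the pairs. For *Irx3* and *Irx5* the shared run of 50 bases could also place reads of 1 gene on the other, and its part was not tested.

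**Figure D3:**
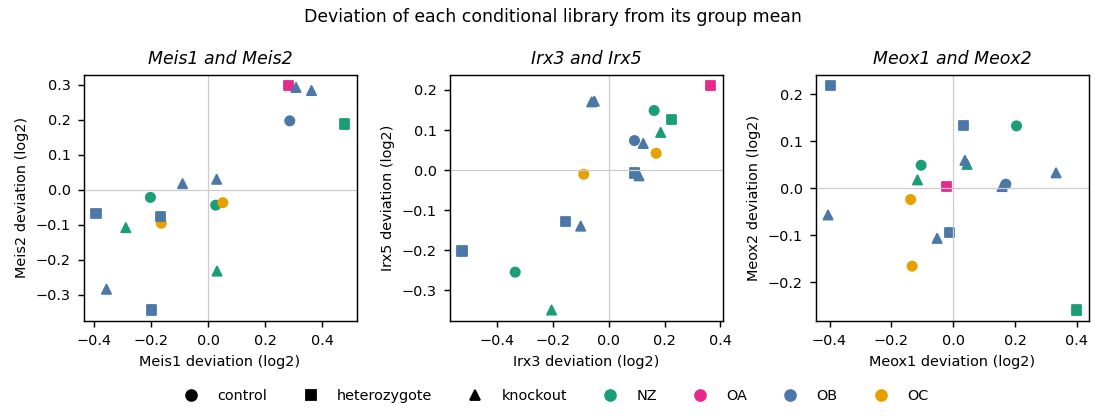
Deviation of each of the 17 conditional libraries from its group mean on the log2(FPKM + 1) scale, for 3 pairs of genes, with shapes for genotype and colours for column letters. *Meis1* and *Meis2* (r = 0.805) and *Irx3* and *Irx5* (r = 0.765) rise together, and *Meox1* and *Meox2* (r = -0.23) do not.

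The genes most like each member over these libraries, by Pearson r after removal of group means (n = 17), were read as a description, since all points share libraries and column letters. *Meox1* was most like *Pkdcc*, which encodes a secreted protein kinase needed for limb skeletal growth (r = 0.897), then *Stmn4* (0.874), *Glipr2* (0.870), *Chrm3* (0.864) and *Tmem100* (0.840). In the 8 conventional libraries other than knockout replicate 1, these 5 had r of 0.590, 0.784, 0.456, 0.430 and 0.772 to *Meox1*. *Meox2* was most like *Dctn4* (0.775), *Bivm* (0.767), *Mrpl49* (0.748), *Spidr* (0.746) and *Ercc5* (0.745). The same 8 conventional libraries gave -0.29, 0.818, -0.82, 0.298 and 0.815. *Meis1* stood nearest to *Hoxb2* (0.857), *Rps9* (0.833) and *Hoxc4* (0.827), which had 0.238, -0.52 and 0.837 there. *Meis2* stood nearest to *Irx4* (0.835), *Rps9* (0.816) and *Mrpl21* (0.810), which had 0.408, -0.17 and -0.63 there. The likeness to *Dctn4*, *Mrpl49*, *Rps9* and *Mrpl21* thus had the opposite sign in these 8 conventional libraries. *Irx3* stood nearest to the Iroquois genes *Irx2* (0.866) and *Irx6* (0.857), with *Tnip1* (0.857) between them, and *Irx5* to *Emid1* (0.778), *Irx3* (0.765) and *Cln3* (0.759). In the conventional libraries *Irx2*, *Irx6* and *Tnip1* had 0.174, 0.691 and 0.753 to *Irx3*, and *Emid1*, *Irx3* and *Cln3* had 0.702, 0.600 and 0.550 to *Irx5*. With knockout replicate 1 included (n = 9) the values differed, from 0.772 to -0.45 for *Tmem100* and from 0.238 to -0.33 for *Hoxb2*. Signs also changed from -0.29 to 0.882 for *Dctn4* and from 0.408 to -0.47 for *Irx4*.

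None of the cofactor, pathway and patterning genes named below was called in either knockout. In the conditional knockout 4 of 7 Pbx and Meis-class cofactors were negative, with a median log2 fold change of -0.01. *Meis3*, the remaining Meis gene, had -0.40 (limma, adjusted p = 0.536). Among the other cofactors of this list, *Pknox1* and *Pbx3* had 0.05 and 0.04. Of the 4 other Iroquois genes 3 were negative in the conditional knockout, with a median of -0.05 (*Irx2* -0.09, *Irx6* -0.08, *Irx4* 0.05). In the conventional knockout 3 of the 7 cofactors were negative, with a median of 0.005. The 4 other Iroquois genes had a median of -0.14 there, with 2 negative and 2 positive, and *Irx6* had -0.38 (limma, adjusted p = 0.596).

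The retinoic acid list holds genes of synthesis, breakdown and response, and none of its genes was called in any of the 6 comparisons. Of 14 tested genes 10 were positive in the conditional knockout (median 0.08) and 11 in the conventional knockout (median 0.24). The heterozygotes gave 10 (median 0.07) and 12 (median 0.06), and the conditional knockout against heterozygote 8 (median 0.01). *Aldh1a2*, the main enzyme of retinoic acid synthesis in the embryo, had 0.57 (limma, adjusted p = 0.816) and 1.09 (limma, adjusted p = 0.187). The retinoic acid binding protein gene *Crabp1* had 0.24 and 0.29, and the receptor gene *Rarg* 0.20 and 0.36. Over all genes the medians were 0.01 and -0.02.

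Segment and girdle genes also passed no test. Of 10 segment genes, 9 Hox genes and *Shox2*, 8 were positive in each knockout, with medians of 0.14 (conditional) and 0.18 (conventional). *Hoxa10* had 0.22 and 0.31, *Hoxa9* 0.15 and 0.21, and *Hoxa13*, the distal autopod gene, 0.25 and -0.08. Of 8 shoulder girdle factors 6 were positive in the conditional knockout (median 0.09) and 3 in the conventional knockout (median -0.13), with *Alx4* at 0.23 and 0.35 and *Pax1* at -0.53 and -0.44. Hedgehog and Gli genes had medians of -0.02 and 0.14, with *Gli1*, a Hedgehog target, at -0.14 and 0.14 and *Smo* at 0.08 and 0.25. Among the factors of the somite, *Nkx3-2* had -0.30 and -0.16 and *Tcf15* -0.17 and -0.24, and among those of muscle progenitors *Met* had 0.08 and -0.39 and *Lbx1* -0.14 and 0.05.

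**Figure D4:**
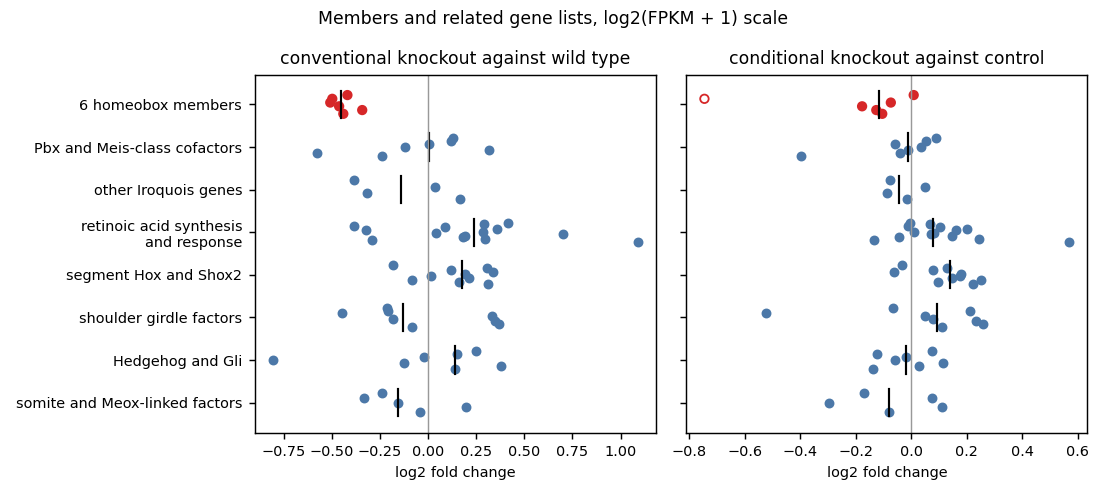
Log2 fold changes of the 6 genes (red; open circle for *Meox1* in the conditional set) and of 7 related gene lists (blue), on the log2(FPKM + 1) scale, with vertical bars at medians. The 6 genes have a median of -0.45 in the conventional knockout, and retinoic acid genes one of 0.24.

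The surroundings of the genes were also read. Of the 56 tested genes within 1 Mb of *Meox1* 0 were called in any of the 6 comparisons, and their median log2 fold change in the conditional knockout was 0.01, from -0.38 to 0.30. Their median in the conventional knockout was 0.15. Of the 8 tested genes within 1 Mb of *Irx3* and the 7 of *Irx5* 0 were called. These neighbours, which share genes and include the other Irx gene, had medians of -0.36 and -0.33 in the conventional knockout and of -0.01 and -0.07 in the conditional knockout. Promoters of 300 bases were matched for 4 of the 6 genes, *Meox2*, *Meis1*, *Meis2* and *Irx3* (RefSeq, GRCm38.p6). GGGCANCC, the core of the site HIC1 is known to bind, was searched on both strands and had 0 matches in these 4 windows, and 5.46% of 32851 promoters hold it. TGACAG, a Meis site, had 0 matches, and 19.2% of promoters hold it. These letters not being in the windows says nothing of binding elsewhere.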

How the data were processed

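Polyadenylated RNA of mouse forelimbs at E13.5 was measured in 26 libraries in 6 genotype groups. The authors deposited FPKM in 1 table per knockout strategy; bcl2fastq, TopHat2, Bowtie2 and Cufflinks with genome build mm10 were used, per the submitters' processing notes. The gene annotation, the read length and the strand setting are not given in the sources used here. No counts are given, so depth and counting error are unknown. The sum of FPKM per library was 410482 to 490248 (conventional) and 436559 to 497121 (conditional). Each table held 1 blank line, left out, and 27 symbols shown as dates in the conditional table were restored from the other table.

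Each table was fitted alone with limma 3.58.1 in R 4.3.3 on log2(FPKM + 1), with genes of a mean of at least 1 FPKM, the 3 groups sharing 1 spread and a mean trend, and Benjamini-Hochberg adjustment over all genes tested. Genes were called at an adjusted p under 0.05. The fit was tested on simulated data with independent noise in each gene and library. The simulation had no letters effect and no library that stood apart, so it does not test the fit against these. The members and gene lists were chosen with earlier results of these data known. Named genes are the 6 members, *Hic1*, list genes called in any comparison with up to 3 more of smallest p per list, and the genes most correlated with each member. A few items that this rule or the sequence comparison would name are not reported here. *Tbx4*, *Pitx1*, the homeobox comparison, the 1 Mb neighbourhoods, the within-letter values, the overlap of list sums and the conventional correlations were added after the data were seen. The design text for the correlations allowed either group means or group and letter means to be removed, and both results are given.

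Alternatives were other pseudocounts (0.1 and 0.5), filters (none and 5 FPKM), median and quantile scaling, 2-group fits, array weights, a letters term, a replicate block and each library left out. Same-numbered libraries of the conventional groups deviated together (r from 0.244 to 0.717 in all 9 pairs), which meets the rule set for pairing (r over 0.1 in each pair). The check does not separate number from letters: among the CL libraries r ran from 0.244 to 0.617 for the same number and from 0.292 to 0.508 for different numbers. In the conditional set r ran from -0.31 to 0.44 over 15 pairs, so the numbers pair nothing there.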

Additional observations from a re-analysis of the deposited data

Results flagged for a closer look

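Of 18 checks for a library far from the rest of its group, over the 6 genes in the 3 conditional groups, 1 was met. *Meis2* in conditional control replicate 3 read 10.96 FPKM, above the other 4 controls, which read 8.76 to 9.28 FPKM. Chance alone meets such a check in about 1 of 20 groups. This library carries the letters OB and was also the highest control for *Meis1*, at 7.71 FPKM.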

How the results depend on the processing

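The count of members called was 0 in all 6 comparisons and stayed 0 under every alternative run except array weights. With limma's default array weights, whose estimate did not converge in the conventional table (knockout replicate 2 was weighted 215.6 and replicate 1 0.0174), 6 of 6 were called against wild type and 5 of 6 against heterozygotes. Gene-by-gene weights, chosen after the data were seen because the default did not converge, gave 4 and 1, and 980 and 36 calls over all genes where the default gave 6726 and 3943 and equal weights 3 and 1. In the conditional knockout against control the weights gave 128 and 122 calls over all genes against 34, and 0 members. Under the other alternatives calls over all genes ran from 17 to 46 there (17 with the filter at 5 FPKM or without control replicate 2, and 20 without control replicate 1), from 5 to 16 for conditional knockout against heterozygote, and from 1 to 8 for conventional knockout against wild type. A replicate block gave 0 members called in each comparison and changed no call on a member, in either set. The 3 correlated pairs became 0 once letter means were removed. The cause was not tested for any of these.

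Some directions reversed, each with an interval that included 0. *Meis1* in conditional knockout against heterozygote became 0.11 under either weighting and 0.058 with a letters term. *Meox1* in conventional heterozygotes became 0.044 (default weights), 0.0045 (gene by gene) and 0.0012 (quantile scaling). *Meox2* became 0.0031 and 0.0010 in conditional heterozygotes under the 2 weightings, and -0.072 in the conditional knockout against control with a letters term.

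With 1 library left out, conventional heterozygotes against wild type ran from -0.13 to 0.084 for *Irx3*, -0.022 to 0.17 for *Irx5*, -0.086 to 0.0048 for *Meis2*, -0.081 to 0.084 for *Meox1* and -0.11 to 0.042 for *Meox2*. *Meis1* ran from -0.11 to 0.11 in conditional knockout against heterozygote. *Meox2* ran from -0.088 to 0.031 (conditional heterozygote against control), -0.032 to 0.042 (conditional knockout against control), -0.022 to 0.097 (conditional knockout against heterozygote), -0.67 to 0.058 (conventional knockout against heterozygote) and -0.72 to 0.0089 (conventional knockout against wild type). *Meis1* fell below the filter of 5 FPKM in the conventional table and has no value there.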
